A study of Mus musculus with 6 samples.

Results

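The replication-dependent histone genes supply the core histones H2A, H2B, H3 and H4 and the linker histone H1 that package new DNA during S phase. They lie in clusters, and in mouse the names Hist1 to Hist4 mark the cluster of each gene. Their mRNAs carry no poly(A) tail: the 3′ end is formed by a cut just after a short stem-loop, which binds the stem-loop binding protein SLBP, and because the genes usually have no intron the transcript needs no splicing. The genes described here are the protein-coding genes of the mm10 GENCODE annotation whose symbols start with Hist1h, Hist2h, Hist3h or Hist4h and which had at least 60 counts summed over all 6 libraries. Of 67 such protein-coding genes 63 reached that number, out of 54532 genes in the files. The members just inside the limit were Hist1h2ap (66 counts), Hist1h2ao (92) and Hist3h2a (99). Just outside it lay Hist1h2br (40 counts), and Hist1h2aa had 1 count, while Hist2h2aa1 and Hist2h3c1 were listed at 0.

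RNA was measured in pooled heads of mouse embryos at embryonic day 8.5, in 3 wild-type pools and 3 pools from embryos with a deletion of Sf3b4 in their neural crest cells, with 3 heads to a pool. Sf3b4 encodes a subunit of the SF3B complex, which helps the U2 particle of the spliceosome recognise the branch site of introns. The titles call the mutants homozygous nulls, and the line that drove the deletion, the strain and the litters were not given in the sources used here. All p-values therefore refer to the spread among these libraries, which may be partly technical. Neural crest cells are only some of the cells of a head, and in whole heads fewer cells of a type and less RNA per cell cannot be told apart. The libraries were made from total RNA, a method that keeps RNA without a poly(A) tail.

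The pools held between 6930827 and 12251910 counts. The check of the targeted gene showed no clear loss in whole heads: Sf3b4 went from 77.5, 72.6 and 63.7 CPM (a gene's counts relative to the TMM-scaled size of its library) to 55.9, 64.0 and 60.8 CPM, with overlapping groups (log2 fold change -0.24, SE 0.0918, edgeR adjusted p = 0.128). All 10 marker genes of the head were detected. Among them En1 (-0.79) and Sox10 (-1.15) fell and Foxc1 (0.37) rose. Summed heart markers came to 13.4 to 48.1 CPM in the wild-type pools and 21.5 to 26.5 CPM in the mutant pools, and summed erythroid markers to 104.7 to 264 and 78.3 to 171.8 CPM, with no marker of either list at 0 over all pools. On 4 Y-linked genes there was 1 count each in wild-type replicate 1 and in mutant replicate 3, and 344 to 664 in every other pool, so those libraries stand apart in that respect.

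The 63 members comprised 52 genes of the Hist1 cluster on chromosome 13, 8 of the Hist2 cluster on chromosome 3, 2 of Hist3 on chromosome 11 and Hist4h4 on chromosome 6. By class there were 6 genes of H1, 16 of H2A, 17 of H2B, 11 of H3 and 13 of H4. The label "intronless" held for 59 of the 63. Hist1h2bp, Hist1h2bq, Hist1h2bc and Hist1h2be have at least 1 annotated transcript with more than 1 exon. Only the longest annotated transcript of each gene was searched for a 3′ stem-loop after the stop codon. It held one in 41 members, 22 to 59 bases downstream of that codon. Of all 20981 protein-coding genes with at least 16 annotated bases there, 60 (0.286%) had a match. Only 17 of those 60 lie outside this family. The 41 are counted out of all 63 members, also those with fewer bases. Of the 22 members without a stem-loop in that transcript, 16 have fewer than 50 annotated bases after the stop codon. The search was for a stem of 6 pairs, GG outermost and T innermost, around a loop of 4 bases that starts TT. The TTT common to all matches was therefore set by the search, and a stem-loop of another form would be missed. In all, 6 sequences were found. They are shown because this element replaces the poly(A) tail. One gene stands for each sequence, the stem-loop of 16 bases is in capitals with 5 flanking bases on each side, and the transcripts are from GENCODE M21:
Hist1h2bf: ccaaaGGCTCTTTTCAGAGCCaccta
Hist1h1t: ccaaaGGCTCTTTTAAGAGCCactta
Hist2h2ac: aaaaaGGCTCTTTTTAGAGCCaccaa
Hist1h4d: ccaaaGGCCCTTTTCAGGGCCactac
Hist1h4b: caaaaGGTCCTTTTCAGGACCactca
Hist1h4i: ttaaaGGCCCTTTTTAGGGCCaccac
The form of Hist1h2bf was shared by 23 members, 9 of them H2A, 7 H2B, 4 H3 and 3 H1 genes, and that of Hist1h1t by 6. The form of Hist1h4d occurred in 7 members, all H4, and those of Hist1h4b and Hist1h4i in 2 H4 genes each. The form of Hist2h2ac occurred in that gene alone. In 21 members the longest annotated transcript goes on for 100 bases or more after the stem-loop, by up to 4884 bases.

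Promoters were matched in RefSeq (build GRCm38.p6, 250 bases before to 50 after the start) for 62 of the 67 genes. CCAAT, searched on both strands, occurred in 53 of the 62 (85.5%), against 37.9% of all 27025 RefSeq promoters. It was in every matched promoter of H1, H2A, H2B and H3 and in 3 of 12 of H4. TATAAA, also on both strands, occurred in 35 (56.5%, against 14.2%). The octamer ATTTGCAT, known from H2B promoters and likewise searched on both strands, occurred in 13 (21%, against 1.75%), of which 7 were H2A and 6 H2B genes. The 3 motifs share no overlapping match in the windows printed here. Many H2A and H2B genes lie head to head and share 1 stretch of promoter. The windows below belong to the genes on which the comparison turns, with matches on either strand in capitals, and each is written in the direction of the named gene.
Hist1h2bp, chr13:21787238-21787537, plus strand: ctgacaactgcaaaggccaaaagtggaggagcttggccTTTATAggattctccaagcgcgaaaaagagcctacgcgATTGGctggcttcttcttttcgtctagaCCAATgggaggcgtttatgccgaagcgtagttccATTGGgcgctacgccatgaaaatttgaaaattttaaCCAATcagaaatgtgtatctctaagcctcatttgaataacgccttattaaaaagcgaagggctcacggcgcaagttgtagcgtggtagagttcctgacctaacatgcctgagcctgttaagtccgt
Hist1h2bf, chr13:23574158-23574457, minus strand: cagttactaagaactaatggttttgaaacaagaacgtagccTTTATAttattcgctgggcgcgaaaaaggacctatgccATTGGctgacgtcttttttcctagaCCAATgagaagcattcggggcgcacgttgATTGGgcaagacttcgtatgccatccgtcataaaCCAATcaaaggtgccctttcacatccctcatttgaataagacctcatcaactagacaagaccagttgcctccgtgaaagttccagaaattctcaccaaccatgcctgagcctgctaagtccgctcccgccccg
Hist1h4d, chr13:23581318-23581617, plus strand: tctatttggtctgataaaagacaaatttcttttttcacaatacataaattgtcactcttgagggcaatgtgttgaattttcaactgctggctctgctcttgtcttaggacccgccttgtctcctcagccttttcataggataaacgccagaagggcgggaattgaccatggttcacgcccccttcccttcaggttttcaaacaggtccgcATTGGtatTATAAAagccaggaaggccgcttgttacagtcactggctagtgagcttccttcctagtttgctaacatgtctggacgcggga
Hist2h2ac, chr3:96220831-96221130, minus strand: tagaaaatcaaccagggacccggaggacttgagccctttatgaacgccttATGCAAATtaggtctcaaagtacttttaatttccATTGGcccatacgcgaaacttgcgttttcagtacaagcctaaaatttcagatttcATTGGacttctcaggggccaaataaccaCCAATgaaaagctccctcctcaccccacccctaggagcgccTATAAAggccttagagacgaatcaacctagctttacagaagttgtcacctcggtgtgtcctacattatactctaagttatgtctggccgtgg
Hist1h2ba, chr13:23934107-23934406, minus strand: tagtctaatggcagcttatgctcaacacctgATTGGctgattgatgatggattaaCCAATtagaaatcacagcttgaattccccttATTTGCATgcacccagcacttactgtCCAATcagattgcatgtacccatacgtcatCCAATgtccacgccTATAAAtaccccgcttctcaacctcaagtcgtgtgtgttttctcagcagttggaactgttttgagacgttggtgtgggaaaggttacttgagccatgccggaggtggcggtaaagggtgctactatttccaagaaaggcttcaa
The windows of Hist1h2bp and Hist1h2bf overlap those of the facing H2A genes Hist1h2an and Hist1h2ad, and in both the single TATAAA match is on the strand of the H2A gene. The octamer is in the windows of Hist2h2ac and Hist1h2ba and not in the other 3.

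As a family the histone mRNAs took overlapping shares of the libraries in both groups. They made up 1.56%, 1.40% and 1.38% of all counts in wild-type replicates 1, 2 and 3, and 1.42%, 1.54% and 1.54% in the mutant replicates. Their summed level was 14330 ± 934 CPM in the wild-type pools and 15150 ± 774 CPM in the mutant pools (SD, n = 3 each), a ratio of 1.06 with a propagated SD of 0.0876. The 10 most counted members gave 42.3% of the family's counts, and the 10 members with fewer than 1000 counts gave 0.225%. Structured RNAs, mostly without a poly(A) tail, were summed as a set of 3909 genes that includes ribosomal RNA. They took 0.574% to 0.719% of the wild-type libraries and 0.701% to 0.827% of the mutant libraries. Rn7sk, the most counted among the listed ones, rose (0.39, SE 0.0847, edgeR adjusted p = 0.0129). Of the 10 listed ones that were tested 5 had positive and 5 negative log2 fold changes, with a median of -0.04, and no other passed. With library sizes taken without structured RNA, the members' median log2 fold change was 0.0494, beside 0.0466 with it kept. The ratio of the summed Hist1 genes was 1.07 either way. Any other part of this difference in the histone values was not tested.

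All 63 members passed the filter on low counts, and 1 of them rose in the mutant pools and none fell (edgeR's two-sided quasi-likelihood test, with a Benjamini-Hochberg adjusted p under 0.05 over 14008 genes). Among all tested genes 2.65% rose and 3.88% fell. At an unadjusted p under 0.05 9 of the 63 members were higher (14.3%) and 1 lower (1.59%), where 11% of all tested genes were higher and 12.2% lower. DESeq2 called 3 members higher and 1 lower, where it called 2.31% of all 14008 genes higher and 3.21% lower. The log2 fold change was positive in 38 members and negative in 25, with a median of 0.05, beside a median of 0.00 over all tested genes. The members' median was 0.01 without mutant replicate 3 and 0.11 without mutant replicate 1. With total counts as the only scaling, 33 were positive and 30 negative, with a median of 0.02. In 5 members the mutant pools lay wholly above the wild-type pools, and in 3 wholly below, where 13.8% and 14.4% of all tested genes did so. The median was 0.07 in the length class of the 2802 shortest tested genes, and 0.14 in 266 other protein-coding genes with 1 exon. For the 53 members with at least 1000 counts the SE ran from 0.0740 to 0.243 with a median of 0.0890, so that most were measured closely. For the 10 with fewer counts it ran from 0.234 to 1.27.

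**Figure D1:**
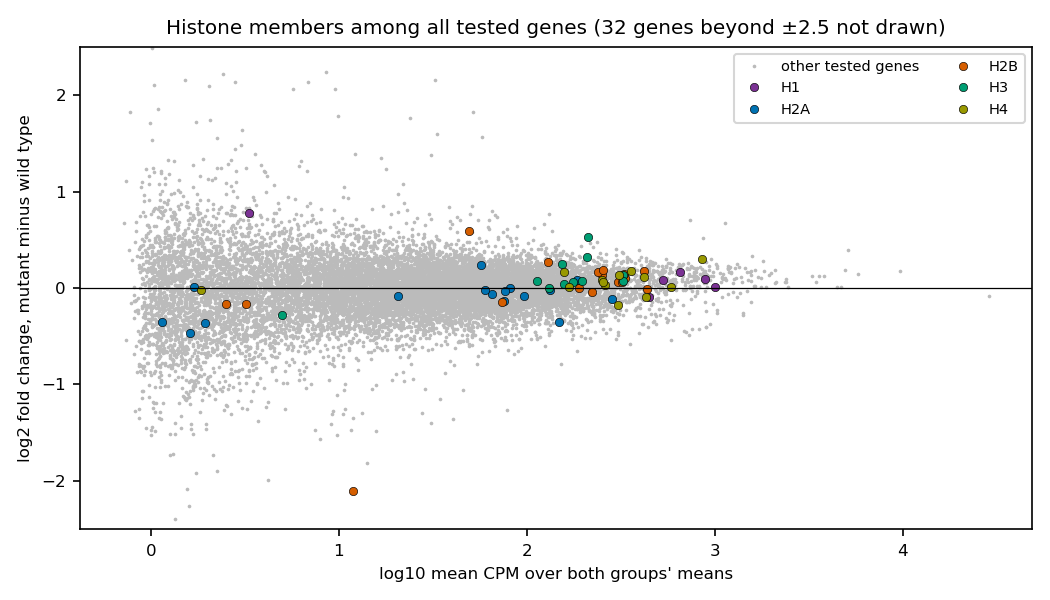
The log2 fold change between mutant and wild-type pools (vertical axis) is plotted against the log10 of the mean CPM (horizontal axis), with grey points for tested genes and coloured points for the 63 histone genes by class. The histone genes lie mostly near 0 on the vertical axis at the high end of expression, with Hist1h2ba apart at -2.11; 32 genes beyond ±2.5 are not drawn.

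**Figure D2:**
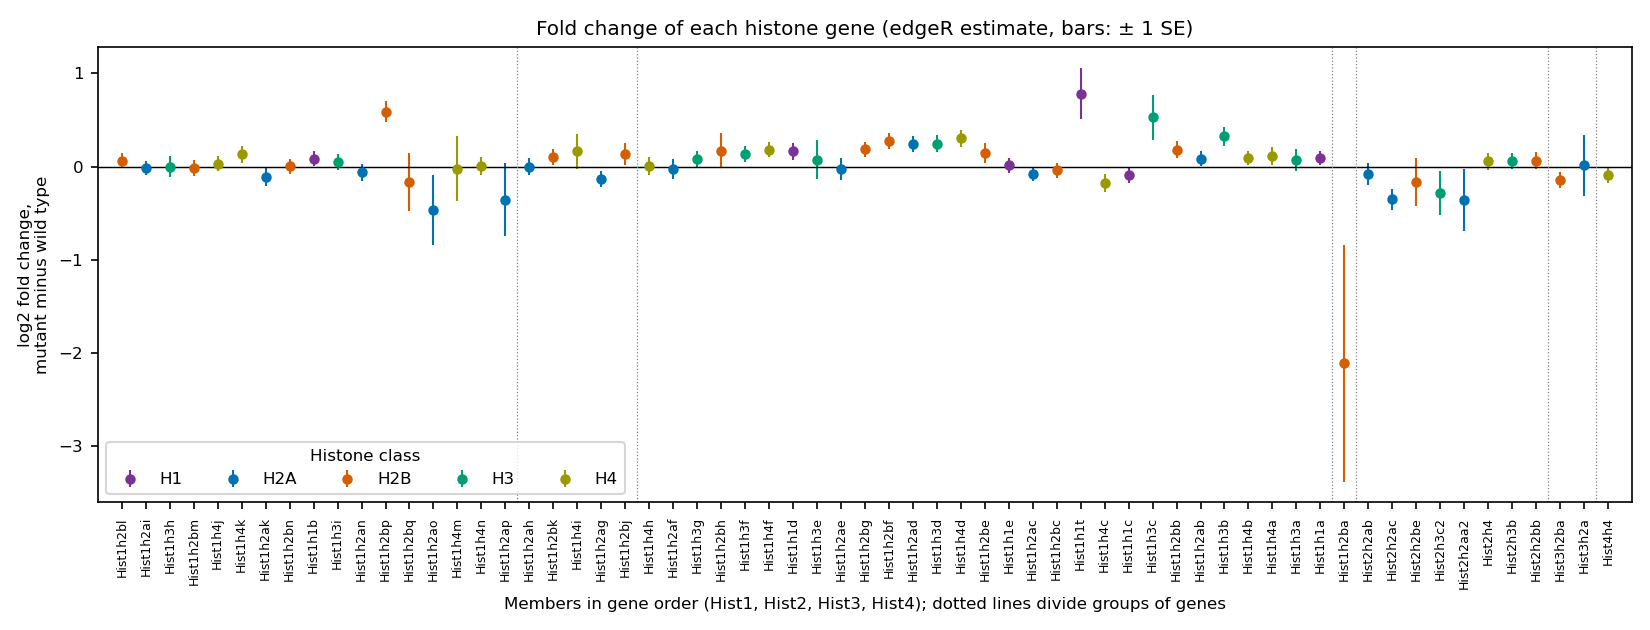
The log2 fold change (mutant minus wild type, points, with bars of 1 SE) is drawn for each of the 63 members in gene order within Hist1, Hist2, Hist3 and Hist4, coloured by class. Hist1h2bp stands at 0.59, between Hist1h2an at -0.06 and Hist1h2bq at -0.16. The fold changes of the 29 genes from Hist1h4h to Hist1h1a are mostly above 0.

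Hist1h2bp, a gene for histone H2B, was the member that rose. It lies on chromosome 13 (mm10, plus strand) and had 45.9, 34.95 and 36.1 CPM in wild-type replicates 1, 2 and 3 and 54.5, 55 and 67.7 CPM in the mutant replicates. All mutant pools were above all wild-type pools, and the log2 fold change was 0.59 (SE 0.117, edgeR adjusted p = 0.00908). The call was lost without wild-type replicate 2 (adjusted p = 0.0558) and held in the other 20 of 21 alternative settings. It is 1 of the 4 members with a multi-exon transcript, and its longest annotated transcript, with 150 bases after the stop codon, holds no stem-loop. Hist1h2an, the H2A gene that faces it across 242 bases, had 60.7, 75.2 and 65.1 CPM in the wild-type pools and 62.8, 62.0 and 67.7 CPM in the mutant pools, with a log2 fold change of -0.06 (SE 0.0910, adjusted p = 0.738).

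The other genes with more than 1 exon in a transcript did not pass. Hist1h2bc had a log2 fold change of -0.04 (SE 0.0810), Hist1h2be of 0.15 (SE 0.109) and the little counted Hist1h2bq of -0.16 (SE 0.311). The 59 members with 1 exon had a median of 0.05, with 36 positive and 23 negative. The 41 members with a stem-loop in their longest annotated transcript had a median of 0.07, and the 22 without one there of 0.00. Other transcripts of a gene were not searched. In the 21 members whose longest annotated transcript runs 100 bases or more past the stem-loop the median was 0.06.

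The Hist1 cluster holds most of the family. Its 52 members summed to 13830, 12290 and 12480 CPM in the wild-type pools and 12980, 14260 and 13950 CPM in the mutant pools, a ratio of 1.07 with overlapping groups. Among them 34 had positive and 18 negative log2 fold changes. The genes fall into groups along the chromosome. In the 17 members from Hist1h2bl to Hist1h2br (21715763 to 21837530) the median log2 fold change was 0.00, with 8 positive and 9 negative, and the 5 from Hist1h2ah to Hist1h2bj (22035164 to 22043676) had a median of 0.10. In the 29 from Hist1h4h to Hist1h1a (23531050 to 23764406) it was 0.11, with 23 positive and 6 negative. The median of these 29 ran from 0.05 without wild-type replicate 3 (21 positive) to 0.17 without wild-type replicate 1 (25 positive). None of the 29 passed.

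Within these 29, a row of neighbouring genes is described here, chosen after their values were seen. Hist1h2bg, an H2B gene, had 258, 214 and 243 CPM in the wild-type pools and 259.5, 280.4 and 275 CPM in the mutants (log2 fold change 0.19, SE 0.0800). The next gene, Hist1h2bf, also for H2B, had 131, 105 and 117 CPM and then 137, 151 and 140 CPM (0.27, SE 0.0844, edgeR adjusted p = 0.0634). Hist1h2ad, the H2A gene that faces Hist1h2bf across 184 bases, had 56.4, 48.8 and 52.4 CPM and then 61.2, 66.8 and 58.5 CPM (0.24, SE 0.0887, adjusted p = 0.118). In these 3 genes every mutant pool was above every wild-type pool, although the gap for Hist1h2bg was small. Over all 29 genes 4 lay wholly above in this way and 0 wholly below, beside 13.8% and 14.4% of all tested genes. Hist1h3d, the H3 gene beside Hist1h2ad, had 156, 122 and 144 CPM and then 184, 166 and 151 CPM (0.25, SE 0.0946, adjusted p = 0.135), with overlapping groups.

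Hist1h4d, the most counted H4 gene, closes that row. Its wild-type values were 856.5, 706.5 and 719.9 CPM and its mutant values 936, 1024 and 855 CPM. Mutant replicate 3 and wild-type replicate 1 were level, so the groups overlapped (log2 fold change 0.30, SE 0.0892, edgeR adjusted p = 0.0551). It passed in 9 of 21 alternative settings, among them DESeq2 and RLE factors, with adjusted p between 0.00533 and 0.216. Hist1h2bf passed in 6 of 21 and Hist1h3d in 2. The settings counted for Hist1h4d and Hist1h2bf include the threshold of 0.1, which is the same fit with their adjusted p unchanged.

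Among the H3 genes, Hist1h3b and Hist1h3c had the largest log2 fold changes. Hist1h3b had 205, 179 and 174 CPM in the wild-type pools and 273, 208 and 218 CPM in the mutant pools, with every mutant pool higher (0.32, SE 0.102, edgeR adjusted p = 0.0793). Hist1h3c had 170, 207 and 145 CPM and then 257, 312 and 181 CPM (0.53, SE 0.243, adjusted p = 0.279). Mutant replicate 3 lay within the wild-type range, and without it Hist1h3c passed (0.71, adjusted p = 0.0035). Its coefficient of variation was 17.9% in the wild-type and 26.4% in the mutant pools. The most abundant H3 genes by CPM, Hist1h3e (354, 329 and 273, then 425, 251 and 326) and Hist1h3f (322, 330 and 272, then 346, 364 and 304), had log2 fold changes of 0.07 (SE 0.209) and 0.14 (SE 0.0890). As a class the 11 H3 members had a median of 0.07 and a summed ratio of 1.12 with a propagated SD of 0.113, and 9 of them were positive. The class median was 0.03, with 7 positive, when wild-type replicate 3 was left out, and leaving out wild-type replicate 1 gave 0.17.

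No H4 gene passed. Of the 13 members 10 were positive, with a median of 0.06, and the summed level went from 4213 ± 379 to 4485 ± 276 CPM (SD, n = 3 each). Hist1h4h, the member of the family with the most CPM per kilobase of exon in the wild-type pools (1237), had 649, 613 and 482 CPM and then 564, 579 and 610 CPM (0.01, SE 0.0969). Hist1h4f had a log2 fold change of 0.18 (SE 0.0823, adjusted p = 0.202). At the other end, Hist1h4c stood at -0.18 (SE 0.0941, adjusted p = 0.284). The median of the H4 genes was 0.02 when mutant replicate 2 was left out, and leaving out wild-type replicate 1 gave 0.14.

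The linker histone genes were among the most counted of the family. Hist1h1e, with the most counts of any member (58481), had 1060, 940.4 and 984.8 CPM in the wild-type pools and 922, 1004 and 1088 CPM in the mutant pools (0.01, SE 0.0794). Hist1h1a had 864, 797 and 918 CPM and then 836, 950 and 963 CPM (0.09, SE 0.0800). In both the groups overlapped. Hist1h1t, the testis-type linker histone gene, had the largest positive log2 fold change of all members, from 2.496, 3.10 and 1.804 CPM to 3.03, 4.51 and 5.13 CPM (0.78, SE 0.277, edgeR adjusted p = 0.106). It had 188 counts in all, and mutant replicate 1 lay just below the highest wild-type pool. The 6 H1 genes together went from 3451 ± 240 to 3597 ± 297 CPM (SD, n = 3 each).

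The H2A genes were the class with mostly negative fold changes. Of the 16 members 13 were negative, with a median of -0.07 and a range from -0.46 to 0.24. None passed, and the summed level went from 1315 ± 70.0 to 1258 ± 98.9 CPM (SD, n = 3 each) with overlapping groups. Between 9 and 14 of the 16 were negative in every alternative setting in which all 16 were fitted, and 9 were without mutant replicate 1. Their median was -0.03 in that setting and -0.10 without mutant replicate 2. The most abundant ones were Hist1h2ak (331, 294 and 260, then 239, 275 and 306 CPM) and Hist1h2ab (195, 170 and 171, then 177, 194 and 198 CPM), with log2 fold changes of -0.11 (SE 0.102) and 0.08 (SE 0.0793). The little counted Hist1h2ao (92 counts) had 1.57, 2.96 and 1.29 CPM and then 1.556, 1.154 and 1.216 CPM (-0.46, SE 0.372). Shared sequence was common in several classes: under 50% of windows of 50 bases occur in no other gene's transcript for 11 of the 16 H2A genes, 7 of 11 H3 genes, 7 of 17 H2B genes, 4 of 13 H4 genes and 0 of 6 H1 genes. The exons of every H2A member also overlap another gene model, and 17 short models annotated as miRNA lie opposite H2A genes of the family, with 0 to 107 counts over all pools.

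In the H2B class 11 of 17 were positive, with a median of 0.06, which was 0.03 when wild-type replicate 2 was left out; leaving out mutant replicate 1 gave 0.13. The most abundant were Hist1h2bm (464.5, 409 and 441 CPM, then 406, 409 and 489 CPM) and Hist1h2bb (425, 344 and 411 CPM, then 411, 476 and 452 CPM). Their log2 fold changes were -0.01 (SE 0.0848) and 0.18 (SE 0.0878, adjusted p = 0.23). In 12 places of the clusters an H2A and an H2B gene lie head to head, 175 to 305 bases apart, and in 10 of these pairs both genes are members. In all 10 the H2B gene had the higher log2 fold change. In 6 pairs the H2B gene was positive and its partner negative, in 3 both were negative, and in 1, Hist1h2ad and Hist1h2bf, both were positive. The difference was 0.65 for Hist1h2bp and Hist1h2an and 0.03 for Hist1h2bf and Hist1h2ad, and in 7 of the 10 pairs the ranges of 1 SE around the 2 values overlapped. This is a description, with no test over the pairs, and the pairs share pools and much of their sequence.

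**Figure D3:**
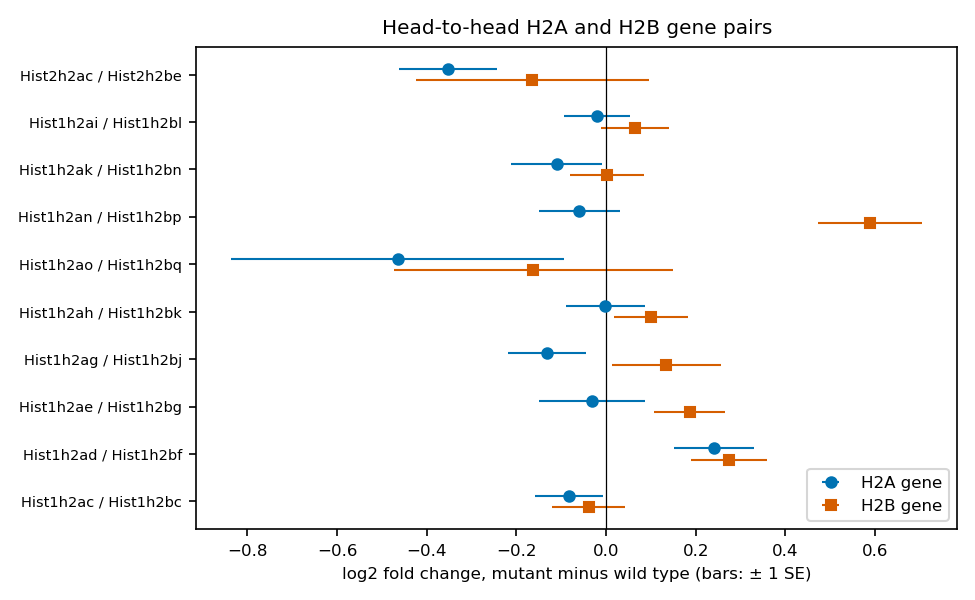
For each of the 10 head-to-head pairs the log2 fold change (horizontal axis, mutant minus wild type, bars of 1 SE) is drawn for the H2A gene as a circle and for the H2B gene as a square. Each square is to the right of its circle, by the widest margin for Hist1h2an and Hist1h2bp.

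**Figure D4:**
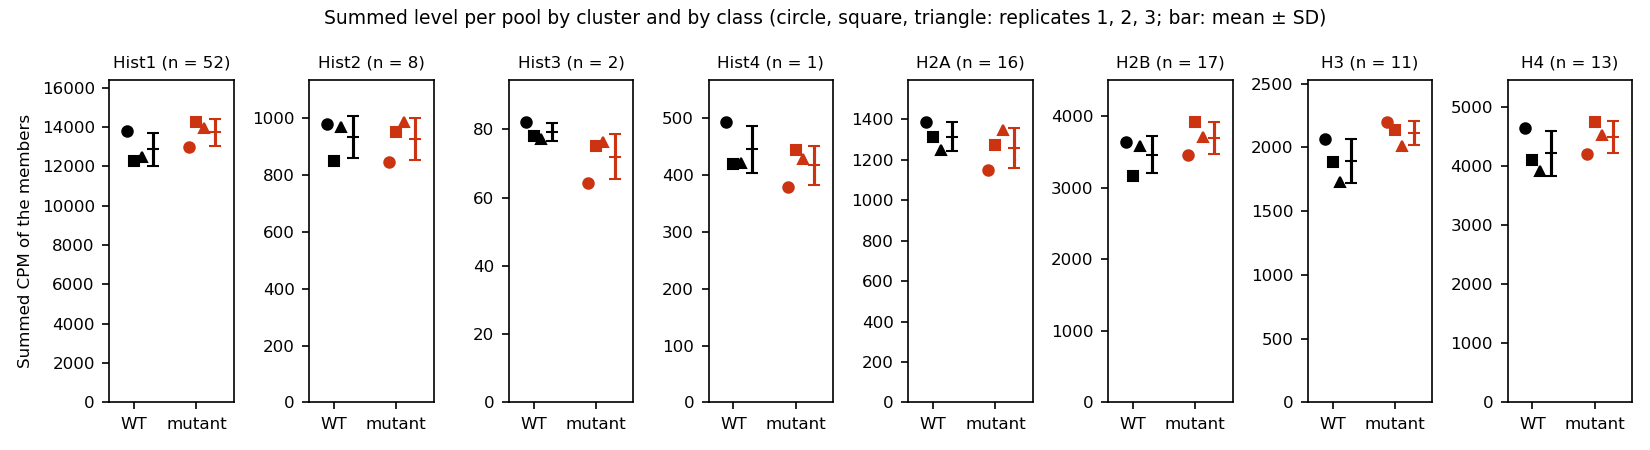
The summed CPM of the members of each cluster and of 4 classes is shown for every pool, with wild-type pools in black, mutant pools in red and bars for the mean ± SD of 3 pools; axes start at 0. The groups overlap in each panel except Hist3, where the wild-type pools (77.3 to 82.2) are above the mutant pools (64.4 to 76.3).

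The Hist2 cluster lies beside Sf3b4 on chromosome 3. Sf3b4 occupies 96172332 to 96177564, and the cluster, from 96219865 to 96270132, begins 42300 bases after it. Its 8 members summed to 980, 848 and 969 CPM in the wild-type pools and 844, 952 and 986 CPM in the mutant pools, a ratio of 0.995 with a propagated SD of 0.111. The cluster is dominated by Hist2h2bb, Hist2h4, Hist2h3b and Hist2h2ac. Hist2h2bb, for H2B, had 332, 269 and 340 CPM and then 301, 327 and 357 CPM (0.06, SE 0.0936). Hist2h4, for H4, had 264, 217 and 269 CPM and then 238, 283 and 261 CPM (0.06, SE 0.0908), and Hist2h3b, for H3, had 195, 161 and 161 CPM and then 169, 187 and 184 CPM (0.06, SE 0.0852). In all 3 the groups overlapped.

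Hist2h2ac, an H2A gene near the Sf3b4 end of the cluster, differed from them. Its wild-type values were 156.5, 169.5 and 169.2 CPM, and its mutant values 109, 124.1 and 156.1 CPM. Each mutant pool was below each wild-type pool, and mutant replicate 3 was level with wild-type replicate 1. Its log2 fold change of -0.35 (SE 0.110) missed the threshold (edgeR adjusted p = 0.0797). It passed in 7 of 21 alternative settings, among them DESeq2 (adjusted p = 0.0402), the Y-linked share as a covariate (0.04) and the fit without mutant replicate 3 (-0.50, adjusted p = 0.00926), and was negative in all 21. These 7 include the threshold of 0.1, which is the same fit with the adjusted p of Hist2h2ac unchanged. Hist2h2be, the H2B gene that faces it across 238 bases, had 2.77, 2.40 and 2.75 CPM and then 2.13, 2.83 and 2.16 CPM (-0.16, SE 0.260).

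The remaining Hist2 genes were at lower levels than those that dominate the cluster, and among them only Hist2h2ab had over 1000 counts (1218). Hist2h2ab had 23.9, 19.4 and 20.3 CPM in the wild-type pools and 19.5, 21.5 and 19.3 CPM in the mutant pools (-0.08, SE 0.114). Hist2h3c2 had 4.53, 6.76 and 5.15 CPM and then 3.19, 5.35 and 4.998 CPM (-0.28, SE 0.234). Hist2h2aa2 had 1.76, 3.24 and 1.72 CPM and then 1.97, 1.57 and 1.35 CPM (-0.36, SE 0.333), and no window of 50 bases of its transcript is its own, so its few counts cannot be assigned to it with certainty. The protein-coding genes on either side did not pass: Bola1, 156 bases before Hist2h2ab, had a log2 fold change of -0.13 (SE 0.119, adjusted p = 0.536), and Hfe2, 255040 bases after Hist2h2bb, of 0.23 (SE 0.329, adjusted p = 0.715).

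No Hist3 or Hist4 gene passed. Hist3h2ba, for H2B, had 80.7, 76.7 and 75.3 CPM in the wild-type pools and 63.0, 73.2 and 74.4 CPM in the mutant pools, so all mutant pools were lower, 1 of them clearly (-0.15, SE 0.0848, edgeR adjusted p = 0.311). Hist3h2a had 1.48, 1.55 and 1.98 CPM and then 1.31, 1.99 and 1.89 CPM (0.01, SE 0.324). Hist4h4 had 494, 420.5 and 422 CPM and then 379, 444 and 429 CPM (-0.10, SE 0.0849, adjusted p = 0.534). Together they had a summed ratio of 0.932 with a propagated SD of 0.110. H2afj lies 3828 bases from Hist4h4 on the other strand and encodes a replication-independent H2A variant. H2afj rose from 17.8, 17.6 and 17.5 CPM to 28.2, 30.02 and 25.9 CPM (0.67, SE 0.104, edgeR adjusted p = 0.00138), and its call held in all 21 alternative settings.

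Hist1h2ba, the testis-type H2B gene at the far end of the Hist1 cluster (chromosome 13, minus strand), varied between the mutant pools by more than any other member. It had 20.6, 19.2 and 16.4 CPM in the wild-type pools and 0.0819, 0.525 and 14.7 CPM in the mutant pools. In counts these are 223, 136 and 191 against 1, 5 and 109. All mutant pools were below all wild-type pools, but mutant replicate 3 was close to them and the other 2 were near 0. The coefficient of variation was 11.4% among wild-type pools and 163% among mutant pools. The log2 fold change was -2.11 (SE 1.27) and did not pass (edgeR adjusted p = 0.412). Without mutant replicate 3 it was -6.02 (adjusted p = 4.33e-07), and in the 4 pools with more than 10 Y-linked counts, which also leave that pool out, -5.94 (adjusted p = 2.55e-06). By limma-voom it passed over all pools (-4.62, adjusted p = 0.011). The size in the fits without mutant replicate 3 rests on 6 counts in 2 mutant pools. The facing gene Hist1h2aa had 1 count in all.

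**Figure D5:**
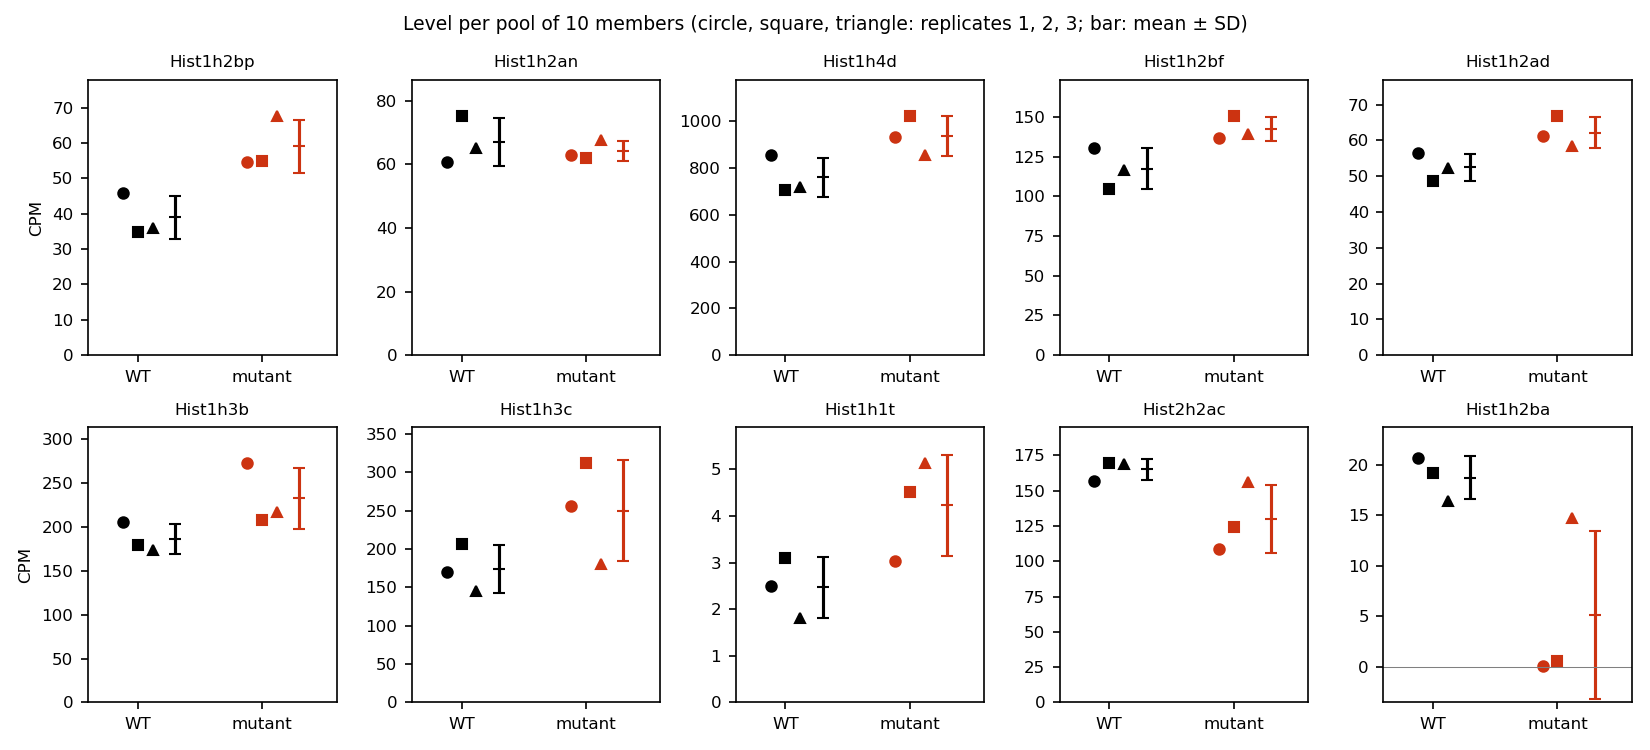
The CPM of 10 members is shown for each wild-type (black) and mutant (red) pool, with circle, square and triangle for replicates 1, 2 and 3 and bars for the mean ± SD of 3 pools. Hist1h2bp is higher in each mutant pool, Hist2h2ac is lower in each, and Hist1h2ba is near 0 in mutant replicates 1 and 2 and at 14.7 CPM in mutant replicate 3.

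Of 40 tested genes that make and process histone mRNA 2 rose (5%, beside 2.65% of all tested genes) and none fell (beside 3.88%), with a median of 0.06. Npat, the coactivator of histone transcription in S phase, had 62.7, 67.8 and 77.2 CPM in the wild-type pools and 71.1, 80.2 and 64.4 CPM in the mutant pools (0.06, SE 0.0985). Slbp, which binds the stem-loop, had 151, 145 and 155 CPM and then 144, 154 and 151 CPM (-0.01, SE 0.0706). Casp8ap2 (0.08), a protein of the histone locus body, and Lsm10 (0.09) and Lsm11 (-0.09), subunits of the U7 particle that guides the cut of the 3′ end, did not pass either. Eri1, the nuclease that trims histone mRNA after the stem-loop, was higher in each mutant pool but did not pass (0.23, SE 0.0870, edgeR adjusted p = 0.121). The genes that rose, Snrpe (0.36, SE 0.0954) and Snrpg (0.27, SE 0.0789), encode Sm proteins that the U7 particle shares with the spliceosomal particles. Their adjusted p values were 0.0382 and 0.0497, and the calls were lost in 7 and 11 of 21 settings, among them each mutant pool left out. Rnu7, the U7 RNA itself, was listed at 0 in every pool.

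Histone transcription is coupled to S phase. Of 50 tested S phase genes none rose (beside 2.65% of all tested genes) and 4 fell (8%, beside 3.88%), and the median was 0.00. Tk1, for thymidine kinase, went from 52.8, 51.0 and 54.2 CPM to 35.1, 34.7 and 38.0 CPM (-0.56, SE 0.0867, edgeR adjusted p = 0.00138), and its call held in all 21 settings. Lig1 (-0.35, SE 0.0731), the ligase that joins Okazaki fragments, Pole (-0.36, SE 0.0853), the catalytic subunit of a replicative polymerase, and Prim2 (-0.38, SE 0.103), a primase subunit, also fell. The call of Lig1 was lost without mutant replicate 1. Those of Pole and Prim2 were lost in 5 of 21 settings each. For both, these included the fits without mutant replicate 1, mutant replicate 2 or wild-type replicate 2. Pole also lost its call without mutant replicate 3 and Prim2 without wild-type replicate 3.

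Among the histone variants that are made outside S phase, H2afj was the 1 that rose out of 12 tested, and none fell, beside the same background of 2.65% and 3.88%. Of 28 tested histone chaperones and importers Ipo4, an importin of histones, fell from 70.4, 74.8 and 60.8 CPM to 51.9, 50.9 and 51.2 CPM (-0.42, SE 0.0903, edgeR adjusted p = 0.0129), and none rose; 1 of 28 is 3.57%, beside 3.88% of all tested genes that fell. Ipo4 lost its call in 5 of 21 settings. These were the fits without wild-type replicate 2 or any single mutant pool, and the pools with more than 10 Y-linked counts. The median of the chaperone list was -0.08, with 10 positive and 18 negative.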

How the data were processed

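For each pool the authors deposited a file of whole-number counts per Ensembl gene, with no normalization, made on mm10 per the submitters' processing notes. Which aligner and counter they ran, and whether strand was used, were not given in the sources used here, so near-identical copies and genes on opposite strands can share reads. Some members also overlap another gene model on the same strand. Hist1h1e and Hist1h2be share 496 bases of exon, and Hist3h2a shares 708 with Trim17, so reads there can belong to either gene. Per the labels' protocols, libraries came from a TruSeq total RNA kit. Of 54532 IDs 54495 matched GENCODE M21. Samples were grouped by their titles. Any 2 pools of a group differed beyond sampling noise (a chi-square of 2.81 to 9.19 per degree of freedom).

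Counts were fitted over all genes with edgeR 4.0.16 in R 4.3.3 (filterByExpr, TMM factors, glmQLFit with robust estimation, glmQLFTest, two-sided), and p-values were adjusted by Benjamini-Hochberg over 14008 genes with a threshold of 0.05. The SE is the log2 fold change divided by the square root of F. Alternatives used DESeq2 1.42.0, limma 3.58.1 (voom), other scaling factors, filters, thresholds and member limits, a replicate block, pools left out, Y-linked counts as a covariate or a limit, and an offset for exon length and GC content (splines with 4 degrees of freedom). The edgeR step was tested on simulated data. Ratios of summed CPM have no test.

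Sequence sharing was measured as the share of windows of 50 bases of a gene's longest GENCODE transcript that occur in no other gene's transcript. Promoters are from RefSeq. The members and lists were chosen with earlier results of these data known. Values per pool are given for all Hist2, Hist3 and Hist4 members, members that passed, the 2 most abundant of each class and the extremes in either direction; other members named were chosen after their values were seen. From other lists up to 4 genes that passed are named. Neighbours of Hist2 are the nearest tested protein-coding genes.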

Additional observations from a re-analysis of the deposited data

How the results depend on the processing

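Low counts limit what can be said of the 10 members with fewer than 1000 counts. Among them, under 50% of windows of 50 bases occur in no other gene's transcript for Hist1h2ao, Hist1h2ap, Hist1h2bq, Hist1h4m, Hist2h2aa2 and Hist2h3c2. The share is above 50% for Hist1h1t, Hist1h2ba, Hist2h2be and Hist3h2a. How far shared sequence, rather than depth, sets these low counts was not tested. The median of all members, the median of all tested genes and the cluster ratios moved by less than the spread between pools in every setting. The medians of the H2A, H2B, H3 and H4 genes and of the 29 genes from Hist1h4h to Hist1h1a moved by over 1.5 times with single pools left out, as given beside them above; that of the 2 Hist3 genes ran from -0.14 without mutant replicate 2 to 0.07 without mutant replicate 1. With single pools left out, the median log2 fold change of the members ran from 0.0109 to 0.11, the Hist1 ratio from 1.05 to 1.11, the Hist2 ratio from 0.956 to 1.04 and the Hist3 and Hist4 ratio from 0.909 to 0.981. No direction of a called value reversed. The number of members called higher, 1, was 2 with RLE factors, upper quartile factors or library sizes without structured RNA, and 3 with DESeq2, the Y-linked covariate or the length and GC offset. It was 4 without a filter on low counts, in the pools with Y-linked counts and at a threshold of 0.1, 0 among the 59 members with 1 exon, and 0 to 5 with single pools left out. The number called lower, 0, was 1 with DESeq2, limma-voom, no filter, the Y-linked covariate or a threshold of 0.1, 2 in the pools with Y-linked counts, and 0 to 2 with single pools left out. Members called in at least 1 setting numbered 8, and 55 were called in none. The cause of these changes was not tested. With the replicate block 3 members were called higher, 1 lower and 1 processing gene; the numbers do not pair the pools, since same-numbered pools had correlations of -0.175, 0.0777 and -0.0686, and wild-type replicate 1 correlated best with mutant replicate 3 (0.297).

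Processing genes called numbered 1 with limma-voom or in the pools with Y-linked counts, 0 without robust estimation, 6 with the Y-linked covariate, 4 with the length and GC offset or a threshold of 0.1, and 0 to 6 with single pools left out. Chaperones called numbered 2 with total counts alone, no filter, the length and GC offset or a threshold of 0.1, 5 with the Y-linked covariate, 0 in the pools with Y-linked counts, and 0 to 4 with single pools left out. Variants called numbered 2 with DESeq2, upper quartile factors, no filter, the Y-linked covariate or a threshold of 0.1, and 1 to 4 with single pools left out. S phase genes called numbered 7 with the Y-linked covariate and 1 to 5 with single pools left out. Over all genes, 371 were called higher and 543 lower in the fit used above. The numbers were 867 and 937 with the Y-linked covariate, 624 and 739 without a filter, and 663 and 887 at a threshold of 0.1. With the length and GC offset they were 647 and 536, and in the pools with Y-linked counts 250 and 287. DESeq2 gave 323 and 449, limma-voom 303 and 429, and total counts alone 324 and 659. Without robust estimation they were 314 and 480. With single pools left out, 107 to 890 were called higher and 123 to 920 lower.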

Other observations

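Hist1h2al, annotated as a processed pseudogene and therefore outside the family described above, was noticed after its values were seen. It lies on chromosome 13 (mm10, 51202727 to 51203065, minus strand), far from the Hist1 cluster. It had 6301, 2260 and 5920 counts in the wild-type pools and 47, 28 and 892 in the mutant pools, or 582, 318.5 and 509 CPM against 3.85, 2.94 and 120.5 CPM. As for Hist1h2ba, all mutant pools were below all wild-type pools and mutant replicate 3 was the nearest to them. Its log2 fold change was -3.58 (SE 1.47, edgeR adjusted p = 0.255). It was -7.09 (adjusted p = 0.00412) without mutant replicate 3 and passed by limma-voom (-5.68, adjusted p = 0.00135) and without robust estimation (adjusted p = 0.0265).

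The other pseudogene of the family, Hist3h2bb-ps on chromosome 11, had 107, 81 and 140 counts in the wild-type pools and 124, 124 and 109 in the mutant pools (log2 fold change 0.17, SE 0.158, edgeR adjusted p = 0.558).

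Hist2h3b and Hist2h2bb, with 10335 and 18884 counts, overlap the opposite-strand gene model Gm20628, which had 34 to 70 counts per pool.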
